A study of Mus musculus with 4 samples.

Results

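The aggrecan, versican and hyaluronan genes described here are 8 of the 32285 genes in the count tables. They are the proteoglycan core genes Acan (aggrecan) and Vcan (versican), the link protein genes Hapln1 and Hapln3, the hyaluronan synthase genes Has1 and Has2, the hyaluronan receptor gene Cd44, and Prg4, which encodes lubricin. The genes were chosen by symbol and were followed in 3846 cells, the barcodes with at least 250 detected genes in 4 single-cell RNA sequencing libraries of mouse tail intervertebral discs. The series set punctured discs against intact ones to follow resident and infiltrating cells after an acute injury. All mice were wildtype C57BL/6 females aged 12 weeks. Injured discs (coccygeal levels CC5/6 to CC9/10) were pierced on both sides with a 30-gauge needle and collected after 7 days. Control discs were unpunctured and lay further down the tails of the same animals (CC12/13 to CC16/17), so tail level and injury cannot be told apart. Discs of 6 mice, 30 discs per group, were pooled into 1 suspension, which was frozen, thawed, sorted for viable cells with DAPI and captured with 10x Chromium v3 chemistry. Each group has 2 libraries, 1 from each of 2 rounds, and whether the 6 mice hold for each round is not stated. The p-values below therefore measure the spread between pooled suspensions, not between mice.

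Aggrecan is the large chondroitin sulfate proteoglycan that holds water in cartilage and in the disc. Its N-terminal domain binds hyaluronan chains, and link proteins lock that bond, so that many aggrecan molecules are anchored on 1 chain; versican binds hyaluronan in the same way and is more typical of fibrous and young tissue. Hyaluronan is made at the plasma membrane by the synthases and is held at the cell surface by the receptor CD44. Lubricin is a mucin-like glycoprotein that coats joint and tendon surfaces and lowers friction.

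The members lie on 6 chromosomes and fall into neighbouring pairs at 2 places (GRCm38, the assembly also called mm10, GENCODE annotation, all protein coding). Acan (chr7:79053483-79115099, plus strand) and Hapln3 (chr7:79115102-79131018, minus strand) end 2 bases apart, tail to tail. Hapln1 (chr13:89539796-89611652, plus strand) and Vcan (chr13:89655312-89742509, minus strand) are 43659 bases apart with 0 protein-coding genes between them. Has1 lies at chr17:17843323-17855205, Has2 at chr15:56665627-56694539, Cd44 at chr2:102811141-102901665 and Prg4 at chr1:150449412-150466165, all on the minus strand. Prg4 overlaps Tpr on the other strand (3061 UMIs of Tpr in all cells), Has2 overlaps Has2os (240 UMIs) and Vcan overlaps the antisense gene Gm4117 (125 UMIs). Use of the strand in counting is not given in the sources used here, so reads of overlapping pairs may not be separated.

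RefSeq promoter entries (GRCm38.p6) matched 6 of the 8 members; Has2 and Prg4 had none. The 250 bases before the RefSeq start of both neighbouring pairs are printed 5′ to 3′ on the gene's own strand, because these 4 genes are chromosomal neighbours whose levels across cell groups are set side by side below. Capitals mark matches, on either strand, to any of 6 short motifs searched: ACAAAG and AACAAT (cores of SOX sites), TATAAA (the TATA box), GGGCGG (the GC box), TGACTCA (an AP-1 site) and CACGTG (an E-box).
Acan, chr7:79052976-79053225, plus strand: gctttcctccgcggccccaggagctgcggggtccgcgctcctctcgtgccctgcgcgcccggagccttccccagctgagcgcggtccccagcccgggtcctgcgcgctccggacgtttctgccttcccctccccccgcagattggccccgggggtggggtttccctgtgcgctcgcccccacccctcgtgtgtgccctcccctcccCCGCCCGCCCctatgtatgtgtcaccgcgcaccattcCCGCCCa
Hapln3, chr7:79131019-79131268, minus strand: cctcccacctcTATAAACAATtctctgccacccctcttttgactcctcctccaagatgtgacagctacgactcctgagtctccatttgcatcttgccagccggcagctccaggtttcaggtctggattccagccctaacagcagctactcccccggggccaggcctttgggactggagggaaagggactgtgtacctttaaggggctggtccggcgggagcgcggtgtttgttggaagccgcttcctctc
Hapln1, chr13:89540386-89540635, plus strand: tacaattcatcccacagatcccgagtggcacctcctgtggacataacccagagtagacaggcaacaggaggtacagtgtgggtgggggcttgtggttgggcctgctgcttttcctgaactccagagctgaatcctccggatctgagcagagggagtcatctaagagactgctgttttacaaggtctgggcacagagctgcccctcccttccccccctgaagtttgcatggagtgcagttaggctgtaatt
Vcan, chr13:89742513-89742762, minus strand: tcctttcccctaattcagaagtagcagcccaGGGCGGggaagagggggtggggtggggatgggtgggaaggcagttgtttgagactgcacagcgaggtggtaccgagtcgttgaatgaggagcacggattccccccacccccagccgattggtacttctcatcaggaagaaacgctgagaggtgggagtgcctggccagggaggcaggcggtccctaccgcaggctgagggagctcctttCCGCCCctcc
The Acan stretch held 3 matches to GGGCGG and had a GC content of 74.4%, and that of Vcan held 2 with a GC content of 62.4%. Hapln3 (58% GC) held 1 match each to TATAAA and AACAAT, which overlap, and Hapln1 (54.4% GC) held none of the 6. GGGCGG was found in 32.7% of 32851 promoters of this length, TATAAA in 12.4% and AACAAT in 9.42%. These matches describe letters only. The RefSeq starts differ from those of the GENCODE spans above for Hapln1, Acan and, by a few bases, Vcan. The Hapln1 stretch lies inside its GENCODE span (chr13:89539796-89611652), and the Acan stretch ends at 79053225, before its span starts at 79053483.

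Total UMIs (distinct transcript molecules) per library ran from 1114210 in control round 1 to 16972879 in injured round 2, and cells per library were 378 and 856 in control rounds 1 and 2 and 778 and 1834 in injured rounds 1 and 2. Control round 1 stood apart: only 444 barcodes were listed for it, and 147 of them reached its lowest listed UMI count in injured round 1 as well. Of its 378 cells, 159 had similar or far more UMIs under the same barcode in injured round 1. These are the control round 1 cells in doubt below: whether part of their RNA is that of injured round 1 was not tested, every control round 1 level includes them, and calls of the members with the block are given with and without them, except in cluster 3, which holds none of them. Clustering without the 8 members gave 16 clusters, of which 11 were named from marker genes. Clusters 0, 2 and 3 were inner annulus or cartilage-like (the inner class: 189, 240, 419 and 746 cells), and clusters 1, 6, 7 and 12 were outer annulus or fibroblast-like (the outer class: 57, 79, 114 and 789 cells). Here and below, 4 values in a row are in the order control round 1, control round 2, injured round 1, injured round 2. Col2a1, the main cartilage collagen, stood at 1373, 1965, 6593 and 7937 counts per 1000000 UMIs (CPM) in the inner class and 689, 939.9, 2945 and 4006 CPM in the outer class, and Col1a1, the main fibrous collagen, at 5412, 4995, 13564 and 15236 CPM in the outer class. Cluster 1 had 4 inner and 4 outer markers among its top 10 genes, so its place in the outer class is uncertain. The classes did not hold the same clusters in each library: cluster 3 made up 50.8%, 87.5%, 7.88% and 10.3% of the inner class, cluster 2 made up 47.1%, 0.833%, 86.2% and 4.96%, and cluster 0 made up 2.12%, 11.7%, 5.97% and 84.7%. Cluster 1 made up 77.2%, 83.5%, 69.3% and 45.8% of the outer class. Values of the members within clusters 3 and 1 are therefore given beside those of the classes, and for the gene lists the counts called there.

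Acan and Hapln1 transcripts were concentrated in the inner class. It held 80.4%, 89.6%, 94.0% and 81.3% of the Acan UMIs of all cells, and 73.8%, 82.9%, 90.2% and 79.2% of those of Hapln1. The same class held 50%, 28.0%, 53.9% and 40.7% of the cells. Mean levels over the 4 libraries were 2203 CPM of Acan and 593 CPM of Hapln1 there, against 481 and 202 CPM in the outer class. Among clusters, the mean Acan level was 3454 ± 276 CPM in cluster 0 (SD, n = 3 libraries with at least 20 cells), whose leading genes were Col2a1, Fn1, Lcn2 and Gdf5, and 2310 ± 568 CPM (n = 3) in cluster 2, led by Inhba, Mmp3, Cxcl2 and Nos2. It was 1941 ± 841 CPM (n = 4) in cluster 3, led by Grem1, Cnmd and Ucma, and 566 ± 310 CPM (n = 4) in cluster 1, led by Comp, Spp1, Chad and Fmod. The spreads of clusters 2 and 3 overlapped, and those of cluster 0 and cluster 3 did not. Cluster 7 of the outer class, with a median of 621 UMIs per cell, gave 1611 and 534 CPM of Acan in injured rounds 1 and 2, the first of them within the range of cluster 3. In the Aspn, Cthrc1 and Postn cluster 6 and in the dividing cluster 12, each with 1 library of at least 20 cells, Acan stood at 121 and 115 CPM, under the 214 CPM of empty barcodes (under 100 UMIs) of that library, injured round 2. Nucleus pulposus-like cells, with a median mitochondrial share of 46.0%, gave 1823 CPM in control round 1 and 146 CPM in control round 2. Macrophage-like cells gave 16.9 and 67.0 CPM in injured rounds 1 and 2, below the 323 and 214 CPM of empty barcodes of the same libraries.

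Hapln1, whose product ties aggrecan to hyaluronan, followed the same order over these 4 clusters: 1109 ± 209.8 CPM in cluster 0, 653 ± 273 in cluster 2, 449 ± 254 in cluster 3 and 235 ± 123 CPM in cluster 1 (SD, n = 3, 3, 4 and 4). Outer cluster 7 did not keep to an order of inner above outer, at 485 ± 320 CPM of Hapln1 (n = 2; 711 in injured round 1 and 259 in injured round 2), a mean above that of cluster 3. It was listed at 22.2 CPM in cluster 6 and at 5.73 CPM in cluster 12 of injured round 2, under the 85.9 CPM of its empty barcodes. Across 14 clusters the log2 levels of Acan and Hapln1 correlated with r = 0.949 and those of Acan and Vcan with r = 0.785; these points share libraries and depth, and the values are descriptive.

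Vcan spread over both disc classes. Its mean level was 4113 ± 989.9 CPM in cluster 3, 2630.2 ± 784 in cluster 1, 2195 ± 115 in cluster 2 and 1703 ± 119 CPM in cluster 0 (SD, n = 4, 4, 3 and 3), so its order among the inner clusters was the opposite of that of Acan. The range of cluster 1 (1791 to 3647 CPM) overlapped with those of clusters 3, 2 and 0, so the Vcan level of cluster 3 was not outside the spread of cluster 1. The outer class held 19.8%, 25%, 14.4% and 44.4% of the Vcan UMIs and 15.1%, 9.23%, 14.7% and 43.0% of the cells. The inner class held 78.1%, 70.7%, 83.4% and 54.1% of the Vcan UMIs. Mean levels over the 4 libraries were 2782 CPM in the inner and 2273 CPM in the outer class. Macrophage-like cells stood at 135 and 111 CPM in injured rounds 1 and 2, below the 292 and 142 CPM of empty barcodes there, and nucleus pulposus-like cells at 16 and 78 CPM in the control libraries.

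The synthases were placed differently. Has1 stood at 249.9 ± 15.4 CPM in cluster 3, 177 ± 41.3 in cluster 1, 157 ± 73.3 in cluster 2 and 67.1 ± 18.3 CPM in cluster 0 (SD, n = 4, 4, 3 and 3). Has2 stood at 196 ± 102 CPM in cluster 2, 133 ± 75.8 in cluster 3, 96.9 ± 26.1 in cluster 0 and 37.9 ± 18.7 CPM in cluster 1. Among inner clusters the Has1 level of cluster 0 lay outside the spread of cluster 3, while the spreads of Has2 in clusters 2, 3 and 0 overlapped. Cluster 5, which stayed unnamed and was led by Gsn, Lpl and Ccl11, gave 462 CPM of Has1 in control round 2 (268 cells) and 177 CPM in injured round 1 (28 cells). It held 0 UMIs of Acan and of Hapln1 in all 4 libraries, which in control round 2 allows up to 26.2 CPM (3 counts). In control round 1, nucleus pulposus-like cells gave 19 UMIs of Has2 (304 CPM), and in control round 2 they gave 0, which allows up to 29.2 CPM.

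Cd44 was the only member with its highest mean in an immune cluster: macrophage-like cells stood at 1416 and 1073 CPM in injured rounds 1 and 2. Outer clusters 12 and 6 stood at 611 and 595 CPM in injured round 2, cluster 2 at 505 ± 88.0 CPM (n = 3), cluster 3 at 485 ± 359 CPM (n = 4), cluster 0 at 261 ± 26.9 CPM (n = 3) and cluster 1 at 221 ± 124 CPM (n = 4; all ± SD). Endothelial-like cells gave 5.81 CPM in injured round 1.

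Prg4 was highest in cluster 1 at 7269 ± 1223 CPM (SD, n = 4). Clusters 2, 0, 6 and 12 followed at 3453 ± 278, 3347 ± 1615, 3017 and 3007 CPM (n = 3, 3, 1 and 1), with overlapping spreads where one was available, and cluster 3 stood at 2033 ± 1203 CPM (n = 4). Macrophage-like, nucleus pulposus-like and endothelial-like cells were at 22.9, 22.6 and 23.2 CPM, where empty barcodes of the other 3 libraries than control round 1 ran from 358 to 940 CPM. The outer class held 44.3%, 62.7%, 30.2% and 71.0% of the Prg4 UMIs. The mean Prg4 level over the 4 libraries was 6183 CPM there, against 2520 CPM in the inner class.

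Hapln3 was close to the limit of detection, with 2, 5, 8 and 20 UMIs in all cells of the 4 libraries. In the inner class it stood at 2.94, 2.45, 1.2 and 2.05 CPM from 2, 3, 6 and 9 UMIs, and it did not pass the count filter of any comparison with all 4 libraries. Its tail-to-tail neighbour Acan gave 973, 1959, 13467 and 13630 UMIs in the same cells. A difference between groups was not detectable at this depth.

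**Figure D1:**
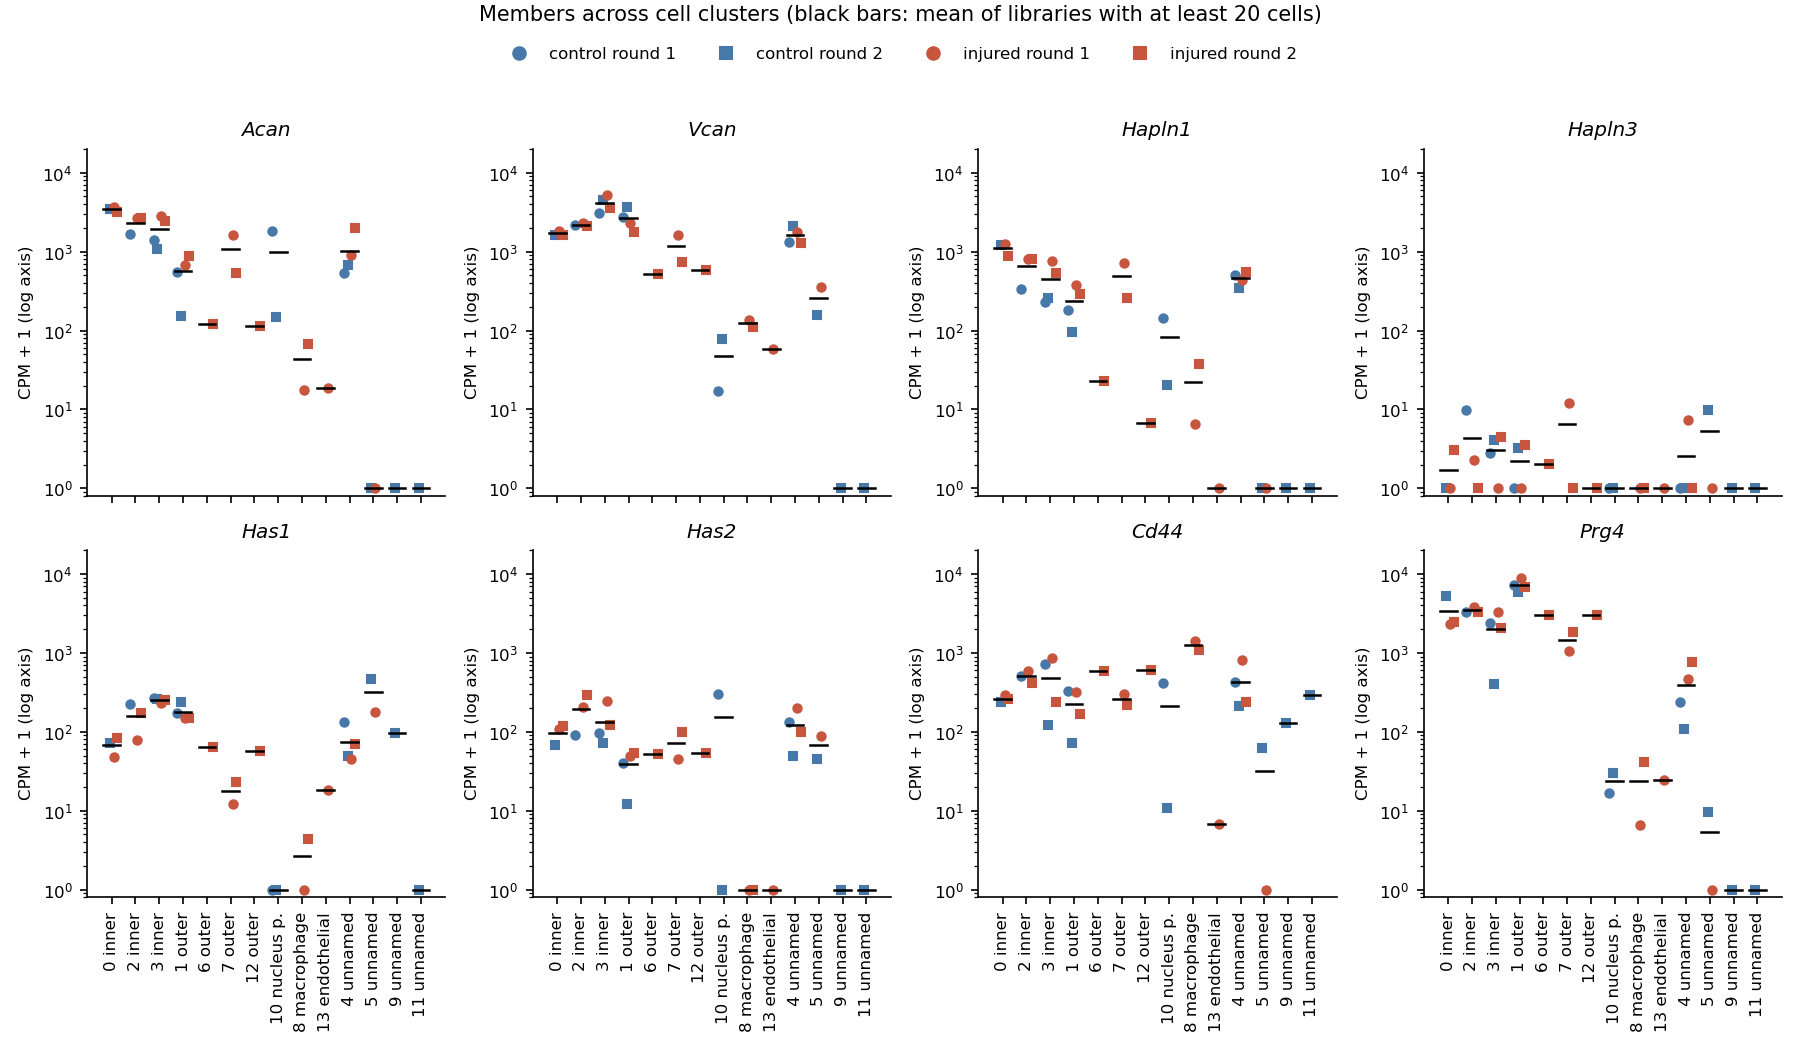
Level of each member (CPM + 1, log axis) in 14 cell clusters. Each point is 1 library with at least 20 cells in the cluster, coloured by group and shaped by round. The black bar is the mean over those libraries. Acan and Hapln1 peak in cluster 0 (means 3454 and 1109 CPM), Vcan and, among named clusters, Has1 in cluster 3 (4113 and 249.9 CPM), Has2 in cluster 2 (196 CPM), Prg4 in cluster 1 (7269 CPM) and Cd44 in macrophage-like cells.

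Genes with the most similar levels over the 14 clusters were sought among genes with a mean of at least 50 CPM. For Acan these were S100b (r = 0.967), Inhba (0.96) and Sbsn (0.961), and for Hapln1 they were Meltf (0.976), Inhba (0.972) and Tnfrsf11b (0.964). Vcan was most like Abi3bp (0.969), Slc39a14 (0.963) and Pcolce2 (0.94). Has1 was most like Uap1 (0.922), which encodes an enzyme that makes a hyaluronan precursor sugar, then C3 and Itm2c (both 0.905), and Has2 was most like Plagl1 (0.906), Ndufa4l2 (0.895) and Ddr2 (0.882). The likest genes of Prg4 were Ugp2 (0.931), which encodes the enzyme that makes UDP-glucose, Crabp2 (0.926) and Thbs2 (0.924). For Cd44 the values were lower (Ndufc1 0.813, Pgd 0.808 and Runx1 0.790), as were those of the barely detected Hapln3 (Usp16 0.759, Col10a1 and Pdcd5 both 0.756). All are correlations over clusters of the same cells, given as descriptions.

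The injury comparison was tested with edgeR's two-sided quasi-likelihood test on UMIs summed per library, 2 injured against 2 control libraries, with Benjamini-Hochberg adjustment over all genes tested and calls at an adjusted p under 0.05. With injury as the only term, 0 of the 7 members tested in the inner class were called, where 0% of 10296 genes were called; 4 of the 7 had an unadjusted p under 0.05, as did 832 of all genes, and DESeq2 called 0 members and 96 genes. With round as a block, 8.50% of genes were called in the inner class and 3 members with them: Hapln1 and Has2 rose and Has1 fell. The block adds a term to a fit of 4 libraries, so less spread of each gene itself remains. Its p-values rest more on spread shared over genes than those with injury only. Both groups came from the same animals, and the round 1 minus round 2 deviations of the control and injured libraries correlated with r = 0.463 over 11213 genes in disc cells. In the outer class, 0 of 7 members were called with injury only, against 1.11% of genes (831 genes and 1 member at an unadjusted p under 0.05; DESeq2 called 83 genes and 0 members), and with the block Cd44 rose, where 7.80% of genes were called. The median log2 difference, injured minus control, was 0.76 over the 7 members in the inner class against -0.05 over all genes, and 0.46 against -0.004 in the outer class. This member median was not stable. In the inner class it was -0.011 without control round 2. In the outer class it was -0.063 without control round 2, -0.22 with members among the clustering genes and -0.59 without cluster 1 (-0.32 with the block). In the other settings it stayed above 0 in both classes. Among the 7 members tested, 3 had both injured libraries above both controls in the inner class and 2 had both below; over all genes tested these shares were 14.9% and 23.0%. The counts were also 3 above and 2 below in the outer class (21.4% and 20.1% of all genes), in cluster 1 (19.1% and 24.4%), over all cells (16.4% and 20.6%) and over all disc cells (16.7% and 20.4%), and 3 above and 1 below in cluster 3 (9.73% and 13.7%). The untested Hapln3 also lay below in the inner class and in disc cells, from 2 to 9 UMIs a library in the inner class.

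The counts of genes called with injury only, against which the members are read, were not stable. For the inner class they went from 0 to 240 genes without control round 1, 76 without control round 2, 84 without injured round 1, 103 without injured round 2 and 199 with no filter on low counts. For the outer class they went from 81 to 54, 15, 240 and 100 when the same libraries were left out, to 241 with no filter, to 15 at a Leiden resolution of 0.5 and to 2 with members among the clustering genes. Markers of the outer annulus or fibroblasts also moved within the inner class: 18, 19, 19 and 20 of 20 were detected, with summed levels of 7398, 3615, 16808 and 9884 CPM, higher in both injured libraries. The 18 inner markers summed to 15483, 10924, 14235 and 13936 CPM there, so in injured round 1 the outer sum was the higher of both. Col1a1 stood at 203, 199, 1861 and 213 CPM in the inner class. The part of these markers in the inner class differences of the members was not tested.

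**Figure D2:**
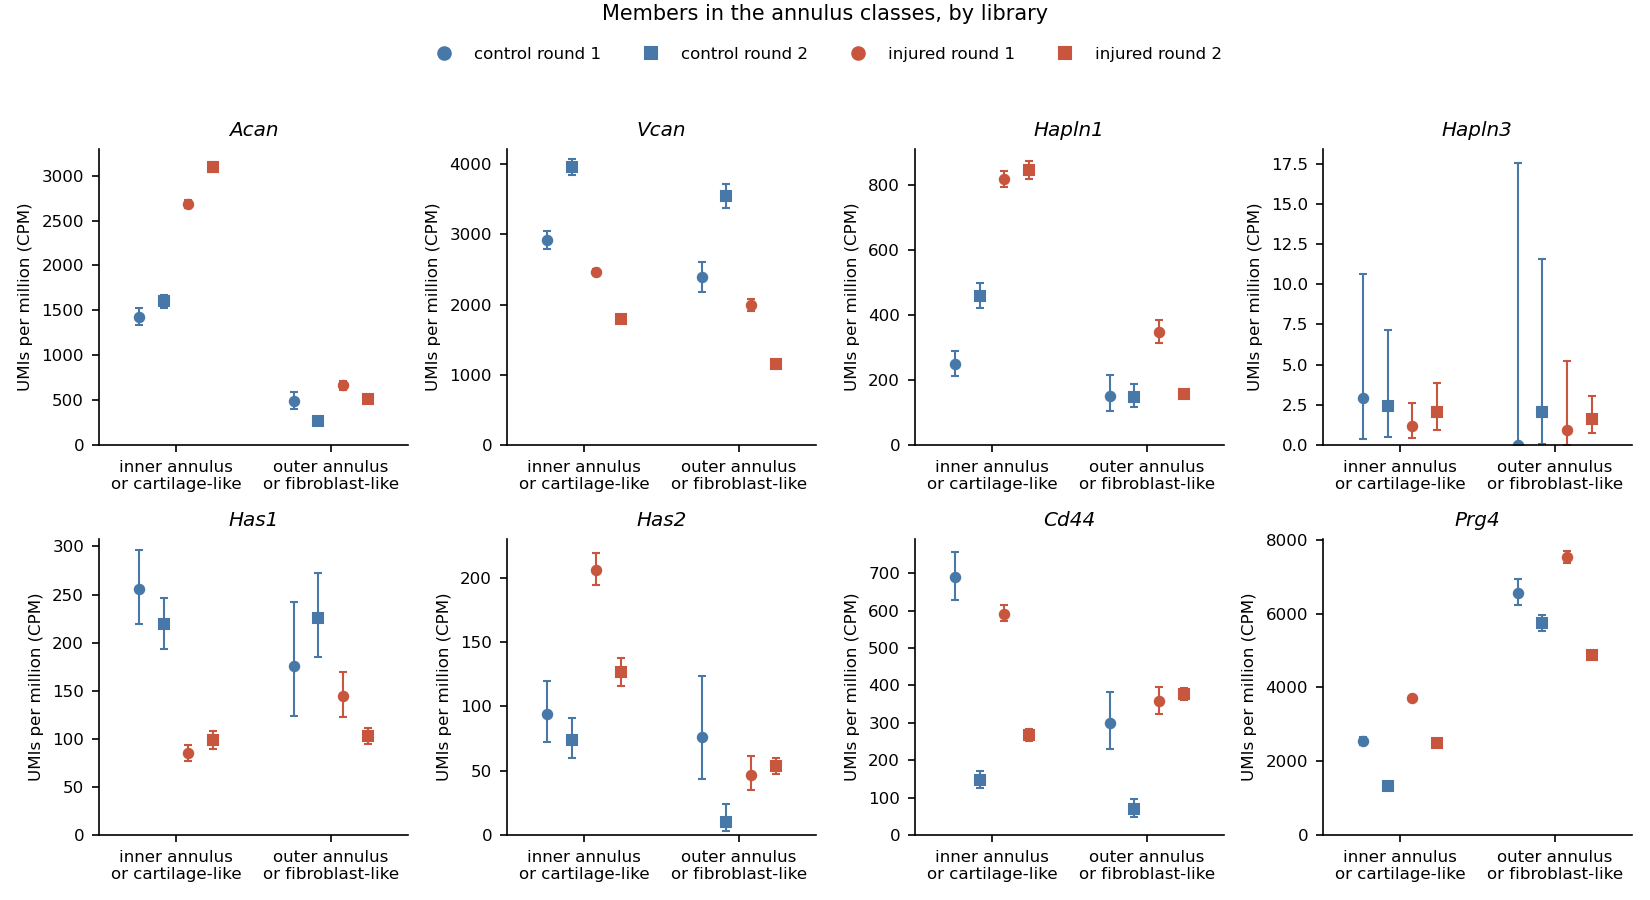
Level of each member (CPM, linear axis from 0) in the inner and the outer class of each library, with exact 95% Poisson intervals that cover counting error only. In the inner class both injured libraries lie above both controls for Acan, Hapln1 and Has2 and below them for Vcan, Has1 and the barely detected Hapln3.

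Acan, the main water-holding proteoglycan, stood at 1430.3, 1599.7, 2685 and 3098 CPM in the inner class. Both injured libraries lay above both controls, with means of 2891 ± 292 against 1515 ± 120 CPM (SD, n = 2 each). The log2 difference was 1.04 ± 0.42 (SE; edgeR unadjusted p = 0.032, adjusted p = 0.56), and with round as a block 1.04 ± 0.40 (adjusted p = 0.085), so Acan was not called. Outer cells gave 489, 263, 665 and 508 CPM, again without overlap, with a log2 difference of 0.62 ± 0.41 (edgeR adjusted p = 0.64). Without cluster 1 the outer difference turned to -1.42 ± 1.09, from 13, 13, 35 and 428 cells.

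Within cluster 3, Acan stood at 1385, 1089.8, 2866 and 2424 CPM (log2 1.13 ± 0.44, edgeR adjusted p = 1.00, with the block 0.125). Within cluster 1 it stood at 553, 150.4, 675 and 886 CPM (1.26 ± 0.56, adjusted p = 0.43, with the block 0.096). Injured libraries lay above controls in both clusters. The cluster 1 value passed the threshold without control round 1 (2.54, adjusted p = 0.025), without injured round 1 (1.59, 0.046) and with no filter on low counts (1.43, 0.032), and its adjusted p reached 0.73 when another library was left out. With 1 library left out, its group has a single library, which is assumed to vary like the other group; the same holds for every such value below. In cluster 0, 3456 CPM in control round 2, from 28 cells, lay between the 3729 and 3178 CPM of injured rounds 1 and 2.

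Vcan stood at 2916, 3957, 2465 and 1789 CPM in the inner class and at 2389.9, 3548, 1996 and 1157 CPM in the outer class. Both injured libraries lay below both controls in each class, the opposite side to Acan. The log2 differences were -0.59 ± 0.43 (edgeR adjusted p = 0.79) and -0.94 ± 0.38 (adjusted p = 0.34), and with the block the adjusted p was 0.44 and 0.064, so Vcan was not called. Within cluster 3 the libraries overlapped, at 3066, 4546, 5276 and 3562 CPM (0.23 ± 0.44). Within cluster 1 they did not, at 2752, 3647, 2331 and 1791 CPM (-0.58 ± 0.33), with the injured libraries lower.

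Hapln1 stood at 248, 459.7, 818 and 844 CPM in the inner class. Its injured libraries lay close together and above both controls (831 ± 18.8 against 354 ± 149 CPM, SD, n = 2 each). The log2 difference was 1.35 ± 0.43 (edgeR unadjusted p = 0.012, adjusted p = 0.41). With round as a block Hapln1 rose by 1.40 ± 0.34 (adjusted p = 0.00129), and by 1.47 (0.00267) when control round 1 cells with similar or far more UMIs in injured round 1 were also left out. The adjusted p ranged from 0.11 to 0.66 over the 15 alternatives without the block.

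Hapln1 was the one member called with the block in both single clusters tested. Within cluster 3 it stood at 229, 259.6, 766 and 541 CPM and rose by 1.43 ± 0.36 with the block (edgeR adjusted p = 0.0107), where 1.12% of genes were called. Within cluster 1 it stood at 179, 95.1, 376 and 289 CPM and rose by 1.43 ± 0.30 with the block (0.0163), where 4.22% of genes were called, and by 1.43 (0.0234) without the control round 1 cells in doubt, which are 12 of 44 there. Cluster 0, which was not tested alone, went the other way in round 2, at 1201 CPM of Hapln1 in 28 control cells and 869 CPM in 632 injured cells; injured round 1 gave 1256 CPM from 25 cells, so that the control lay between the injured libraries. With injury only, 0 of 7 members were called in either cluster, against 0% of genes in cluster 3 (106 genes and 3 members at an unadjusted p under 0.05, DESeq2 0 genes) and 0.268% in cluster 1 (740 genes and 2 members, DESeq2 77 genes and 0 members). The adjusted p of Hapln1 with injury only was 1.00 in cluster 3 and 0.25 in cluster 1 (0.025 with no filter on low counts). In the whole outer class Hapln1 stood at 152, 149, 348 and 158 CPM, so injured round 2 lay near the controls, and the log2 difference was 0.71 ± 0.43 (adjusted p = 0.59). The cluster 6 cells that made up 31.7% of the outer class of injured round 2, against 8.77%, 3.8% and 10.5% in the other libraries, gave 22.2 CPM of Hapln1 in that library. The part of this makeup in the outer class value was not tested.

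The share of cells with a UMI was compared after thinning each cell of the inner class to 500 UMIs, which left out 0, 3, 3 and 1 shallower cells, since the median depth was 2495, 4550, 9212 and 5110.5 UMIs per cell of the inner class. Acan was then detected in 55.0% (104 of 189), 43.5% (103 of 237), 65.4% (272 of 416) and 69.0% (514 of 745) of cells, and unthinned in 83.6%, 86.7%, 98.6% and 97.2%. Hapln1 was detected in 18.5%, 14.3%, 33.9% and 30.5% after thinning and in 48.1%, 58.8%, 94.7% and 86.6% before. Both were seen in a larger share of each injured library than of either control. Macrophage-like cells, as a type that should lack both genes, held Hapln1 after thinning in 0 of 36 cells of injured round 1 and 0 of 88 of injured round 2, which allows up to 8.33% and 3.41% of cells with a UMI at that depth and sets no limit on cells that express the gene. They held Acan in 2 of 36 and 2 of 88, at median depths of 4010 and 3299 UMIs. Thinning to 1000 UMIs kept 117, 219, 413 and 730 inner cells. Of those with Acan, 20%, 34.6%, 51.0% and 53.0% also held Hapln1, where the shares over all inner cells kept were 16.2%, 30.1%, 49.9% and 51.2%. Of inner cells with Hapln1, 78.9%, 68.2%, 89.8% and 88.8% held Acan, against 64.1%, 59.4%, 87.9% and 85.8% of all inner cells. In each library these shares were above their counterparts over all inner cells.

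Has1 stood at 256, 219, 85.3 and 98.9 CPM in the inner class. Both injured libraries lay at less than either control (92.1 ± 9.57 against 237 ± 26.1 CPM, SD, n = 2 each). The log2 difference was -1.26 ± 0.38 (edgeR unadjusted p = 0.0084, adjusted p = 0.37). With round as a block Has1 fell by 1.25 ± 0.29 on the log2 scale (adjusted p = 0.000524), and by 1.31 (0.00113) without the control round 1 cells in doubt. The adjusted p ranged from 0.25 to 0.80 over the 15 alternatives without the block. In the outer class it stood at 176, 226, 145 and 103 CPM, with the injured libraries lower (-0.73 ± 0.39, adjusted p = 0.51). The share of inner cells with a Has1 UMI changed with thinning. It was 27.0%, 26.2%, 38.7% and 29.6% unthinned, 15.4%, 14.2%, 6.54% and 8.77% at 1000 UMIs per cell, and 4.23%, 8.02%, 2.88% and 4.30% at 500. Thinning to 1000 UMIs also changed the cells compared, keeping 117, 219, 413 and 730 of 189, 240, 419 and 746 inner cells. The part of this loss in the shares was not tested. Both injured libraries were below both controls at 1000 UMIs only, and at 500 the groups overlapped.

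Within cluster 3, Has1 stood at 264, 256, 228 and 251 CPM, a log2 difference of -0.08 ± 0.44 (edgeR adjusted p = 1.00), and with the block -0.09 ± 0.35. The cluster value was thus near 0 while that of the whole inner class was -1.26. Cluster 3 held most inner cells in both control libraries and few in both injured ones, and clusters 0 and 2, which made up most inner cells of the injured libraries, gave 82.9 CPM (cluster 0, injured round 2) and 77.8 CPM (cluster 2, injured round 1). The part of this difference in makeup in the class value was not tested. In cluster 2, control round 1 gave 222 CPM and injured rounds 1 and 2 gave 77.8 and 171 CPM, but 79 of the 89 control cells had far more UMIs under the same barcode in injured round 1. Within cluster 1, Has1 stood at 173, 237, 149 and 149 CPM (-0.40 ± 0.34, adjusted p = 0.71, with the block 0.43).

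Has2 stood at 94.1, 74.3, 207 and 127 CPM in the inner class, both injured libraries above both controls (167 ± 56.5 against 84.2 ± 14.0 CPM, SD, n = 2 each). The log2 difference was 1.08 ± 0.40 (edgeR unadjusted p = 0.024, adjusted p = 0.52). With the block Has2 rose by 1.06 ± 0.29 (adjusted p = 0.00655), and by 1.06 (0.0124) without the control round 1 cells in doubt; over the 15 alternatives without the block the adjusted p ranged from 0.27 to 0.96. Its direction in the inner class was thus opposite to that of Has1. Within cluster 3 it stood at 95.7, 72.1, 242 and 120.1 CPM (1.13 ± 0.48; with the block 1.08, adjusted p = 0.122). Outer cells gave 76.0, 10.4, 46.7 and 53.7 CPM from 16, 5, 50 and 300 UMIs, the controls enclosing the injured libraries. Within cluster 1 it stood at 39.1, 11.1, 48.9 and 52.4 CPM, the injured libraries above both controls (1.38 ± 0.57, edgeR adjusted p = 0.39).

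Over all 3846 cells, the block called Hapln1 (1.13, edgeR adjusted p = 0.0387) and Has1 (-1.08, 0.0169), where 6.70% of genes were called, and over all disc cells it called Has1 (-1.06, 0.0274), where 5.46% were called. With injury only 0 of 7 members were called in both, against 0.0834% and 0.0178% of genes. Without the control round 1 cells in doubt these 3 calls did not pass, while the log2 differences were about as large: 1.14 for Hapln1 (edgeR adjusted p = 0.11) and -1.16 for Has1 (0.062) over all cells, and -1.12 for Has1 in disc cells (0.086).

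**Figure D3:**
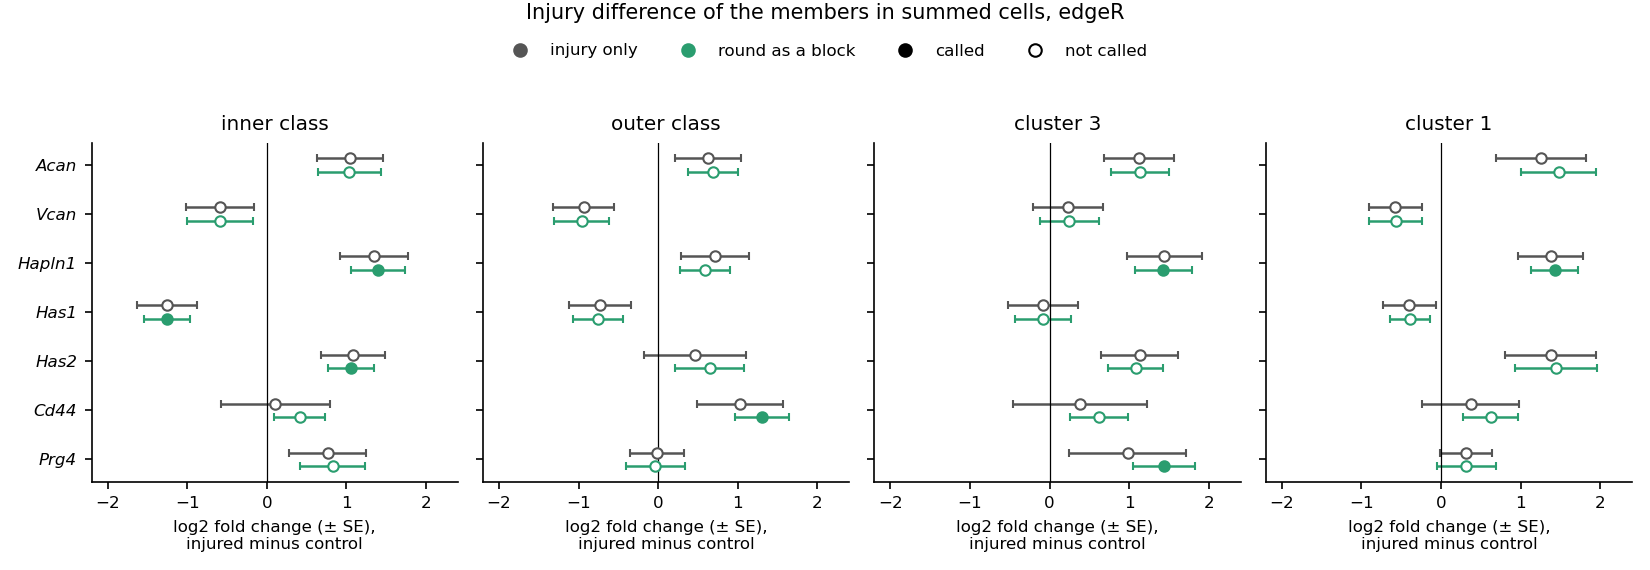
Log2 difference, injured minus control, of the 7 members that could be tested, with SE, in the inner class, the outer class, cluster 3 and cluster 1, for injury only (grey) and with round as a block (green); filled symbols were called at an adjusted p under 0.05. Hapln1 is filled with the block in the inner class and in both clusters, Has1 and Has2 in the inner class, Cd44 in the outer class and Prg4 in cluster 3; no grey symbol is filled.

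Cd44 differed more between rounds than between groups in the inner class, at 691, 147, 592 and 267 CPM. Both round 1 libraries lay above both round 2 libraries, and the log2 difference was 0.11 ± 0.68 (edgeR adjusted p = 0.99), with the block 0.41 (0.50). Outer cells gave 299, 68.3, 358 and 377 CPM, the injured libraries above the controls. With injury only the difference was 1.03 ± 0.54 (adjusted p = 0.51), and with the block Cd44 rose by 1.30 ± 0.34 (0.00374). The call did not pass without the control round 1 cells in doubt, with a difference about as large (1.28, 0.088), and over the 16 alternatives without the block the adjusted p ranged from 0.089 to 0.89 and the log2 difference from 0.31 (without control round 2) to 2.82 (without cluster 1), with 2.48 without control round 1. The injured library stood at 1.2 times the control in round 1 and at 5.51 times in round 2.

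Cd44 overlapped between groups within cluster 1, at 329, 70.8, 316 and 169 CPM, and within cluster 3, at 728, 119, 852 and 240.3 CPM. In injured round 2, clusters 6 and 12 of the outer class stood at 595 and 611 CPM. Macrophage markers in the outer class were detected as 2, 2, 7 and 11 of 12, with summed levels of 19.0, 20.7, 50.4 and 42.1 CPM; Csf1r was listed at 0, 0, 2.80 and 0.358 CPM and Ptprc at 0, 0, 1.87 and 0.358 CPM. Their part in the Cd44 value was not tested. At 500 UMIs per cell, 69.4% (25 of 36) and 42.0% (37 of 88) of macrophage-like cells of the injured libraries held Cd44 (unthinned 89.2% and 85.4%). In endothelial-like cells of injured round 1 it was 0 of 34, which allows up to 8.82% of cells with a UMI at that depth, not of cells that express it (unthinned 2.78%).

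Prg4 stood at 2546, 1331, 3702 and 2499 CPM in the inner class, with injured round 2 just under control round 1 (0.76 ± 0.49, edgeR adjusted p = 0.75). Outer cells gave 6571, 5741, 7536 and 4886 CPM, the injured libraries enclosing the controls (-0.02 ± 0.34, adjusted p = 1.00). Prg4 was not called in either class. Within cluster 1 it stood at 7245, 5989, 8919.6 and 6921 CPM (0.31 ± 0.32, adjusted p = 0.76). Within cluster 3 it stood at 2377, 401, 3279.9 and 2074 CPM and rose by 1.44 ± 0.39 with the block (edgeR adjusted p = 0.0248; with injury only 0.98 ± 0.74, 1.00), although control round 1 lay above injured round 2.

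In cluster 3 the Prg4 difference varied by round: the injured library stood at 1.38 times the control in round 1 and at 5.18 times in round 2. Cluster 0 of round 2 went the other way, at 5211 CPM in 28 control cells and 2479 CPM in 632 injured cells. Markers of synovial lining, the joint tissue that makes lubricin, were detected in the outer class as 4, 3, 3 and 5 of 5, with summed levels of 190.1, 190.5, 84.9 and 85.9 CPM; Clic5 was listed at 4.75, 0, 0 and 0.358 CPM and Cd55 gave 114, 149, 53.2 and 46.7 CPM of the sum. Their part in the Prg4 levels was not tested.

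**Figure D4:**
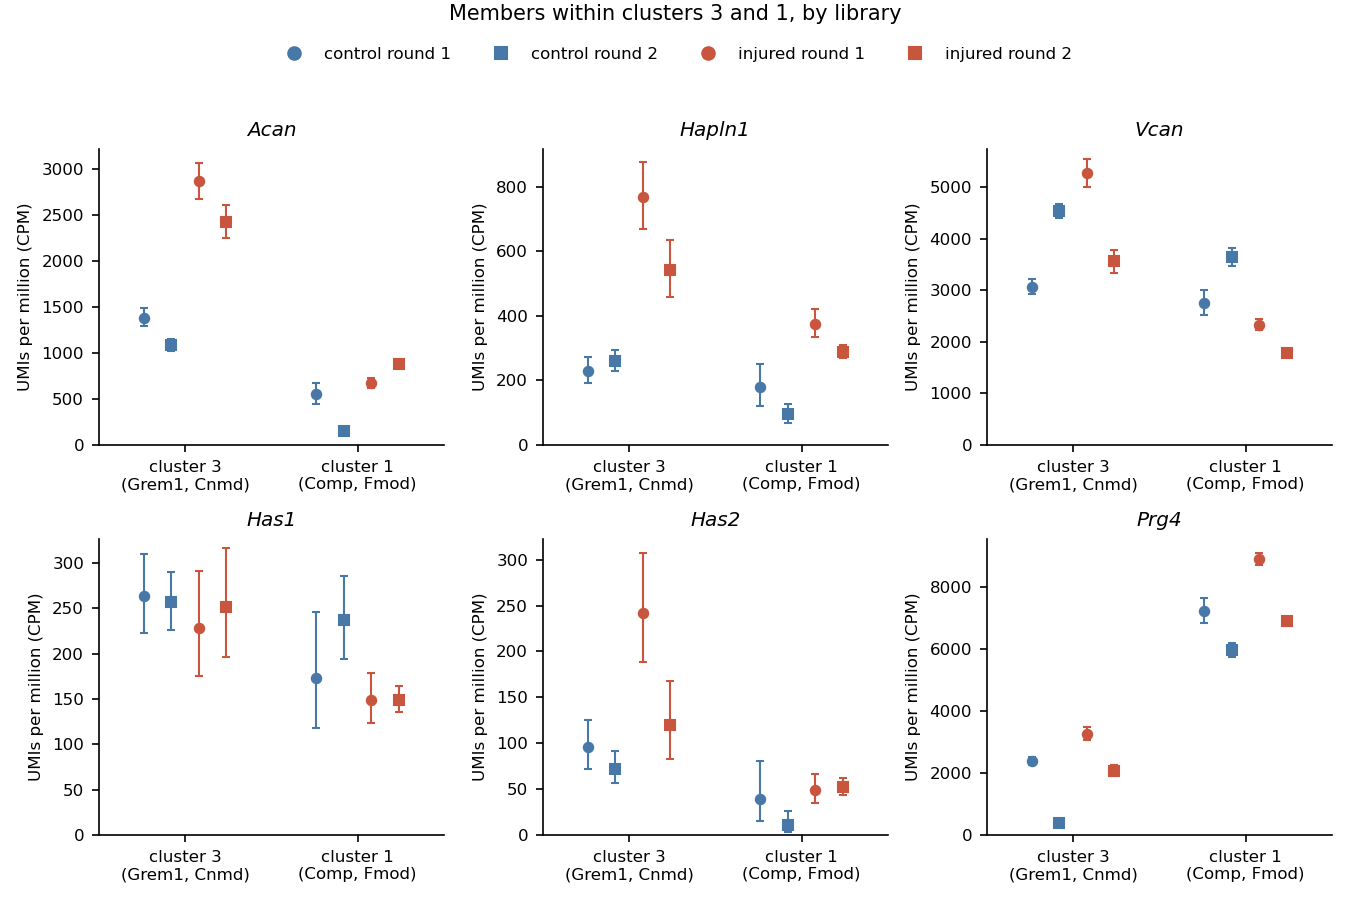
Levels (CPM, linear axis from 0) of Acan, Hapln1, Vcan, Has1, Has2 and Prg4 within cluster 3 and cluster 1 of each library, with exact 95% Poisson intervals that cover counting error only. Within cluster 3, Has1 stays between 228 and 264 CPM in all 4 libraries, while Hapln1 is at 229 and 259.6 CPM in the controls and at 766 and 541 CPM in the injured libraries.

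Whether the injury difference depended on the class was tested with an interaction term, outer minus inner, with library as a term. None of the 7 members was called, where 0.128% of 9387 genes were called (511 at an unadjusted p under 0.05). The smallest unadjusted p-values were those of Prg4 (-0.84 ± 0.33, edgeR unadjusted p = 0.020, adjusted p = 0.79) and Cd44 (0.96 ± 0.41, edgeR unadjusted p = 0.032, adjusted p = 0.85). Cd44 passed the threshold when injured round 1 was left out (1.56, adjusted p = 0.0267), and the adjusted p ranged up to 1.00 when other libraries were left out. The differences between classes for Acan (-0.33 ± 0.38) and Hapln1 (-0.71 ± 0.45) did not pass.

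Other genes of the hyaluronan and aggrecan network were followed in 7 lists. Of 8 genes for hyaluronan synthesis and its precursor sugars, 7 were tested in each class and 0 were called with or without the block; Uap1 stood at 595, 278, 311 and 241 CPM in disc cells and Ugdh, which makes UDP-glucuronic acid, at 313, 217, 406 and 261 CPM. Of 10 breakdown genes, 7 could be tested for inner cells and 5 for outer cells, and 0 were called with or without the block. None of the 4 other lecticans and link proteins (Ncan, Bcan, Hapln2 and Hapln4) had enough counts to be tested. Of the 9 cartilage and lubricin regulators, all were tested in both classes and 0 were called with injury only; Sox9, the cartilage transcription factor, stood at 2387, 1693, 1625 and 961 CPM in disc cells (-0.61, edgeR adjusted p = 0.81), and with the block Creb5 fell by 0.98 ± 0.32 in the inner class (adjusted p = 0.0289).

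Among 18 hyaluronan receptors and binding proteins, Itih5, a heavy chain of the inter-alpha-trypsin inhibitor family, fell in the outer class with injury only. It stood at 147, 242, 30.8 and 26.3 CPM (log2 -2.81 ± 0.42, edgeR adjusted p = 0.00905), and it also fell within cluster 1 (-3.42 ± 0.41, 0.0195). In the inner class it stood at 51.4, 63.7, 4.98 and 4.55 CPM and was not called by edgeR with injury only (0.064), but was called with the block (-3.47 ± 0.37, 1.64e-18) and by DESeq2. The outer call was lost without control round 2 (-2.36, 0.086) and with members among the clustering genes (-2.22, 0.535), and Itih5 did not pass the count filter without cluster 1. With the block in the outer class, Tnfaip6, whose product moves those heavy chains onto hyaluronan, rose by 1.00 ± 0.33 (0.0349; 176, 78.7, 217 and 253 CPM), although control round 1 lay close to the injured libraries. The block also called Hmmr, a hyaluronan receptor known from dividing cells, higher there (3.66 ± 1.08, 0.0137), where the dividing cluster 12 held 1 cell in injured round 1, 67 in injured round 2 and none in the controls, and Itih2 lower (-2.58 ± 0.68, 0.00434).

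Among 11 partners of aggrecan, versican and CD44, Fbln1 (fibulin 1) fell in the outer class with injury only, at 394, 339.5, 72.8 and 51.9 CPM (log2 -2.59 ± 0.40, edgeR adjusted p = 0.00905). That call was lost with members among the clustering genes (-1.31, 0.90), and Fbln1 did not pass the count filter without cluster 1. Tnc (tenascin C) rose in the outer class, at 4.75, 0, 25.2 and 269 CPM (adjusted p = 0.0332), a call that ended without control round 1 (0.0575), control round 2 (0.244) or injured round 2 (0.740), and DESeq2 did not make it (0.165). It also ended without the barcodes shared by the round 1 libraries (0.0561), at a Leiden resolution of 0.5 (0.121) and with members among the clustering genes (0.535). Tnc did not pass the count filter without cluster 1. It is one of the markers by which clusters 6 and 12 were named, which made up 31.7% and 8.49% of the outer class in injured round 2, against 8.77% and 3.8% for cluster 6 and no cell of cluster 12 in the controls. The part of this makeup in the Tnc value was not tested. With the block, the inner class also showed falls of Tnr (29.4, 79.2, 0.797 and 2.95 CPM; -4.72 ± 0.43, 1.13e-24), Matn3 (54.4, 18.8, 0.997 and 1.82 CPM; -4.47 ± 0.50, 1.44e-16), Fbln1 (123, 116, 36.5 and 10.5 CPM; -2.46 ± 0.30, 1.43e-13) and Comp (2346, 1187, 697 and 392 CPM; -1.57 ± 0.36, 0.000722), and a rise of Tnc (4.13 ± 0.99, 0.00115). Tnr and Tnc encode ligands of the lectican C-terminal domain, and Comp and Matn3 are cartilage matrix proteins and also stand in the marker list used to name inner cells. DESeq2 without the block called Tnr, Matn3 and Fbln1 of the inner class too, and Itih5 with them. Within cluster 3, 10 of the 11 partners were tested, and the block called 0 higher and 1 lower, where 1.12% of genes were called. The part of the inner class makeup in these falls and in the rise of Tnc was not tested. In the outer class the block called Fbn1 (fibrillin 1) higher (95, 91.1, 201 and 539.9 CPM, log2 1.93 ± 0.35, edgeR adjusted p = 5.29e-06), and Msn, which encodes the CD44 partner moesin (0.96 ± 0.32, 0.0363). Within cluster 1, 8 of the 11 partners were tested, and the block called 0 higher and 1 lower, where 4.22% of genes were called. The part of the outer class makeup in the Fbn1 and Msn values was not tested.

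Of 10 proteases that cut aggrecan or versican, 5 were tested in each class and 0 were called with injury only. With the block, which called 7.80% of all genes there, 3 were called higher in the outer class: Mmp14, a membrane-anchored metalloproteinase, at 52.3, 37.3, 66.3 and 215 CPM (1.69 ± 0.39, edgeR adjusted p = 0.00075), Mmp13 (3.86, 0.00542) and Mmp3 at 451, 10.4, 285 and 235 CPM (1.15 ± 0.37, 0.0297). For Mmp3 control round 1 lay above both injured libraries, so that its groups overlapped. Within cluster 1, 4 of the proteases were tested and 0 were called with or without the block. With injury only 1 of them had a positive difference there, and their median log2 difference was -0.12, against 0.98 in the outer class. The part of the makeup of the outer class in these calls was not tested. Without the control round 1 cells in doubt, the block differences of Tnfaip6 (0.97, edgeR adjusted p = 0.131), Msn (1.01, 0.0675) and Mmp3 (1.17, 0.368) in the outer class were about as large but were not called, while the calls of Hmmr (0.0417), Itih2 (0.0256), Fbn1 (0.000307), Mmp13 (0.0108) and Mmp14 (0.0372) and all 7 of the inner class (adjusted p at most 0.0330) were kept. Tnc in the outer class with injury only was not called either (adjusted p = 0.0526), at a log2 difference of 6.61 against 6.64 with those cells.

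Over all lists, 3 of 44 tested genes were called in the outer class with injury only, against 1.11% of all genes, and 11 with the block (8 higher, 3 lower), against 7.80%. For the inner class it was 0 of 49, against 0%, and 7 with the block (1 higher, 6 lower), against 8.50%. Within cluster 1, 2 of 40 tested genes were called with injury only, against 0.268%, and the block called 1 higher and 2 lower, against 4.22%. Within cluster 3, 0 of 37 were called with injury only, against 0%, and the block called 0 higher and 1 lower, against 1.12%.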

How the data were processed

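The members and gene lists were chosen with earlier results of these data known. The authors deposited UMI counts for each gene and barcode from Cell Ranger, version 6.0.0 for control round 1 and version 4 for the other libraries per the file headers, and aligned to mm10 per the submitters' processing notes. They are whole numbers and were not normalized. After removal of genes detected in under 5 cells (16401 remained), each cell was scaled to 10000 UMIs and log-transformed, and the 2000 most variable genes, without the 8 members, were scaled with a cap of 10 and reduced to 30 principal components (Python 3.11.15, scanpy 1.11.5). A graph of 20 neighbours was partitioned with leidenalg 0.10.2 at resolution 1. A cluster was named from at least 3 markers, each seen in at least 25% of its cells at 1.2 times the mean of the other cells. Clusters in which over 50% of control round 1 barcodes had similar UMIs in injured round 1, a rule set after the data were seen, stayed unnamed, as did those with more top markers of another class. No doublets were removed: Scrublet called 3, 1, 0 and 6 cells, under 0.5% in 3 libraries, so it was not relied on.

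UMIs were summed per library and class and tested in R 4.3.3 with edgeR 4.0.16 (filterByExpr, TMM, two-sided quasi-likelihood test, Benjamini-Hochberg adjustment, threshold 0.05). The procedure was also run on simulated disc cell counts without a round effect or a change in cell makeup. That run cannot vouch for the block calls where rounds or makeup differ. The fit used injury only; round as a block was an alternative, since per the labels both groups came from the same animals. Other alternatives were DESeq2 1.42.0, RLE normalization, no low-count filter, each library left out, 500 genes per cell, a mitochondrial limit of 10%, Leiden resolution 0.5, members among the clustering genes, and shared barcodes left out. Leaving out the control round 1 barcodes in doubt, leaving out cluster 1, and the tests within cluster 1 and within cluster 3 alone were chosen after the data were seen. CPM are UMIs of a gene per 1000000 UMIs of the group. All 8 members are named; of the lists, the called genes (at most 5 per list by p-value), or otherwise those with the highest mean level in disc cells, are named. Intervals (95%, exact Poisson or Clopper-Pearson) and the limits for a count of 0 (3 counts) cover counting error only. An exact permutation test with 2 against 2 libraries cannot go below p = 0.33, so none was used.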

Additional observations from a re-analysis of the deposited data

How the results depend on the processing

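With round as a replicate block, which pairs the libraries of a round, the number of members called changed from 0 to 3 in the inner class, 2 in cluster 3, 2 over all cells, and 1 each in disc cells, the outer class and cluster 1. With the block and without the control round 1 cells in doubt it was 3 in the inner class (8.59% of genes called) and 1 in cluster 1 (4.05%). It was 0 over all cells (2.08%), in disc cells (1.29%) and in the outer class (5.88%). Cluster 3, which holds none of those cells, necessarily gave 2 again. With no filter on low counts 2 members were called in cluster 1, where 1.33% of 15071 genes were called. Fits with 1 library left out have a single library in that group, so their called members are not counted here.

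The injured minus control difference in the share of inner cells with a UMI, in percentage points at 500 UMIs, at 1000 UMIs and unthinned, was 17.9, 25.1 and 12.7 for Acan, 15.7, 27.4 and 37.2 for Hapln1, -2.53, -7.12 and 7.53 for Has1, and 11, 18.3 and 24.3 for Prg4. The Has1 share thus reversed without thinning. Thinning to 1000 UMIs kept 117, 219, 413 and 730 inner cells, so the settings differ in cells as well as in depth.

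Some log2 differences of single members turned direction, none of them called in the turned direction; the cause was not tested. When each library was left out in turn, Cd44 ranged from -0.22 to 1.79 over all cells, -0.36 to 2.00 in disc cells, -0.62 to 1.70 in the inner class, -0.37 to 1.89 in cluster 1 and -0.71 to 2.15 in cluster 3. Has2 and Prg4 in the outer class ranged from -0.57 to 2.33 and from -0.27 to 0.28, and Vcan and Has1 in cluster 3 from -0.058 to 0.64 and from -0.18 to 0.055. For the interaction, Acan ranged from -0.84 to 0.14 and Has2 from -1.42 to 1.04. Cd44 turned without control round 2 in 5 of these cell sets, and without injured round 1 in disc cells (-0.026), the inner class (-0.50) and cluster 3. Without shared barcodes Cd44 in the inner class was -0.00024.

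In the outer class without cluster 1, Acan was -1.42 (-1.07 with the block), Hapln1 -1.78 (-1.87) and Prg4 0.39 (0.40). Has2 there was -0.34 with members among the clustering genes, a setting in which the interaction of Vcan was 0.13. Prg4 in the outer class was 0.12 with no filter, 0.16 without control round 1, 0.13 without shared barcodes and 0.0401 at Leiden resolution 0.5, where the interaction of Acan was 0.00478. Has1 in cluster 3 was 0.0253 under 10% mitochondrial UMIs. The Acan and Has2 interactions were also 0.041 without injured round 2 and 0.0197 without injured round 1. Of the other single-gene values, 716 kept direction and side of the threshold and 21 passed it newly.

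With 2 libraries a group, a difference that did not pass is not shown to be absent. Control round 1, with 1114210 UMIs, limits every value that rests on it, and Hapln3 was too low to test with all 4 libraries and the filter on low counts; in 3 alternatives for the inner class that did test it, edgeR gave -0.77 to -0.42 (adjusted p = 0.954 to 0.978).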
